A study of Mus musculus with 9 samples.

Results

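The testis-specific serine kinases Tssk1 to Tssk6 were followed in 9 RNA-seq libraries of mouse male germ cells. The 6 genes were taken by their symbols from a table of 54532 genes, and all 6 were found and passed the filter on low values, which left 17266 genes. The libraries fall into 3 groups of 3: ClpX conditional knockout (cKO), ClpP cKO and wild-type controls, all labelled PD 35 (postnatal day 35). In the matrix of mitochondria, ClpP degrades proteins that its partner, the ATPase ClpX, unfolds. In the knockouts the gene was deleted by Stra8-Cre, a recombinase driven by a promoter that is active in germ cells, so other testis cells kept it. Sample titles say spermatocytes and the cell type label says male germ cells. The labels give no strain, no method of cell isolation and no origin of the replicates, so the p-values below measure only the spread between these libraries.

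TSSK proteins are serine/threonine kinases made almost only in the testis, mainly after meiosis, in spermatids. In the mouse, TSSK1 and TSSK2 act in the same step of late spermatid remodelling, share the substrate TSKS, and their joint loss makes males infertile with a disordered mitochondrial sheath of the sperm tail. TSSK3 is needed for male fertility, TSSK4 phosphorylates the tail fibre protein ODF2, and TSSK6 is needed for the replacement of histones by protamines and for the phosphorylated form of histone H2AX in spermatids. TSSK5 is the least studied member. The family is set here beside marker genes of spermatids.

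Tssk1 (ENSMUSG00000041566) and Tssk2 (ENSMUSG00000045521) are neighbours on the plus strand of mouse chromosome 16, at 17894223 to 17897922 and 17898637 to 17900024 in GRCm38 (mm10). Each is a single exon, with coding sequences of 1095 and 1074 bases. Over 1045 aligned coding bases, 81.9% were identical. The longest unbroken stretch that both share is 113 bases, at coding positions 371 to 483 of each gene. It is shown because no read inside it can be assigned to one gene of the pair by sequence, and beside it stands the aligned stretch of Tssk3, in which capitals mark bases that differ from Tssk1.
Tssk1 and Tssk2, chr16:17894723-17894835 and chr16:17899105-17899217: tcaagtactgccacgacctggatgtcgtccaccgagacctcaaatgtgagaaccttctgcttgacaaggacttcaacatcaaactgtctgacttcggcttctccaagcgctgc
Tssk3, coding positions 365 to 472: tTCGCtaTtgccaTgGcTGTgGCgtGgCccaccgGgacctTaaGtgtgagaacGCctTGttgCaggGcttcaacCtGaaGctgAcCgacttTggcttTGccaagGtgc
In this stretch 70.4% of 108 aligned bases of Tssk3 matched Tssk1, and the alignment held 5 gap columns. Across the other 14 pairs of members, coding identity was 61.4% to 67.0% and no shared run was longer than 14 bases. Of all 50-base windows in the transcript, 9.34% in Tssk2 occur also in Tssk1, 3.83% in Tssk1 occur also in Tssk2 or Dgcr2, and 0 in Tssk3, Tssk4 and Tssk5 occur in another gene. How the authors' counting treated reads that match several genes is not given in the sources used here.

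The other 4 members are scattered. Tssk3 (ENSMUSG00000000411) lies on chromosome 4 at 129489014 to 129491022, minus strand, with 2 exons. Tssk4 (ENSMUSG00000007591) lies on chromosome 14 at 55650184 to 55652539, plus strand, with 4 exons in its principal transcript. Tssk5 (ENSMUSG00000060794) lies on chromosome 15 at 76371952 to 76374938, minus strand, with 8 exons. Tssk6 (ENSMUSG00000047654) is a single exon on chromosome 8 at 69902184 to 69903518, plus strand. Its exon shares 375 bases, or 28.1% of its length, with exons of Ndufa13 on the opposite strand, and Tssk1 shares 63 bases with Dgcr2, also on the opposite strand. Whether the counting used strand is not given in the sources used here, so reads in those bases cannot be assigned to one of the 2 genes.

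Promoter sequence (RefSeq, GRCm38.p6, 250 bases before to 50 after the start) was matched for 5 of the 6 members. The promoters of Tssk1 and Tssk2 share a run of 11 bases, shown in capitals, which is the longest shared by any 2 of the 5 and starts 20 bases before the RefSeq start of Tssk1 and 33 bases before that of Tssk2.
Tssk1, chr16:17894174-17894202, plus strand: cacctgggaGACAGTGCTGAaagttccat
Tssk2, chr16:17898595-17898623, plus strand: tcacttggtGACAGTGCTGAgcgttccac
On either strand this run was present in 6 of 32851 promoters. The full cAMP response element TGACGTCA, the site bound by CREB and CREM, was in 0 of the 5 member promoters and in 1.79% of all promoters. Its short form TGACG, which lies within the full element, was in the promoter of Tssk6 alone, 73 bases before the start, and in 20.8% of all promoters. The exact sequence GTTGCC, taken as the X-box core, was in 0 of the 5 and in 12.5% of all. Other forms of the X-box were not searched, so their absence from these promoters was not tested. The similar sequence GTTACC stands in the promoters of Tssk2 and Tssk6, and its share of all promoters was not counted. These matches are descriptions of letters in a window.

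Each library held 14334436 to 17021685 gene reads, and both extremes were controls. Values are FPKM, fragments scaled by gene length and sequencing depth. Each member was covered by at least 197 reads (Tssk5 in ClpX cKO 2) and at most 5799 reads (Tssk2 in Control 2). As the check of the labels, Clpx was at 13.4 ± 2.14 FPKM in ClpX cKO and 56.5 ± 2.41 FPKM in controls, and Clpp was at 5.0 ± 1.24 FPKM in ClpP cKO and 9.06 ± 0.52 FPKM in controls (SD, n = 3 each). Clpx was also below controls in ClpP cKO (37.5 ± 2.42 FPKM), and Clpp was above controls in ClpX cKO (13.1 ± 0.85 FPKM). Along the leading principal component (66.5% of variance), Control 3 (-39.2) and ClpX cKO 1 (19.1) lay nearer to the ClpP cKO libraries (-3.41 to 13.2) than the rest of their groups did. Results that rest on those libraries are given with and without them.

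Tssk1 was measured at 39.1, 19.1 and 23.2 FPKM in the 3 ClpX cKO libraries, at 48.8, 36.2 and 40.2 FPKM in ClpP cKO and at 78.4, 75.9 and 69.1 FPKM in controls. Tssk2 was at 93.8, 55.4 and 56.5 FPKM in ClpX cKO, 143, 101 and 125 FPKM in ClpP cKO and 272, 274 and 192 FPKM in controls. For both genes every knockout library lay below every control, while the top ClpX cKO library reached into the ClpP cKO range for Tssk1 but not for Tssk2.

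Tssk3 was at 30.5, 19.8 and 22.1 FPKM in ClpX cKO, 45.4, 38.8 and 42.9 FPKM in ClpP cKO and 105, 97.1 and 60.4 FPKM in controls. The 3 groups did not overlap, and Control 3 stood well below the other controls. Tssk4 was at 32.9, 12.7 and 19.1 FPKM in ClpX cKO, 30.2, 22.8 and 24.5 FPKM in ClpP cKO and 48.7, 40.8 and 53.5 FPKM in controls. Here both knockouts lay below the controls and overlapped each other, with ClpX cKO 1 above every ClpP cKO library.

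Tssk5, the lowest member, was at 10.5, 5.43 and 6.36 FPKM in ClpX cKO, 8.44, 6.29 and 6.27 FPKM in ClpP cKO and 12.4, 9.73 and 19.4 FPKM in controls. ClpX cKO 1 lay above Control 2, so those groups overlapped, and Control 3 was the highest library. Tssk6 was at 31.2, 21.7 and 22.1 FPKM in ClpX cKO, 80.2, 56.0 and 63.8 FPKM in ClpP cKO and 206, 222 and 89.5 FPKM in controls. Its groups did not overlap, and Control 3 lay far below both other controls, close to the top of the ClpP cKO range.

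**Figure D1:**
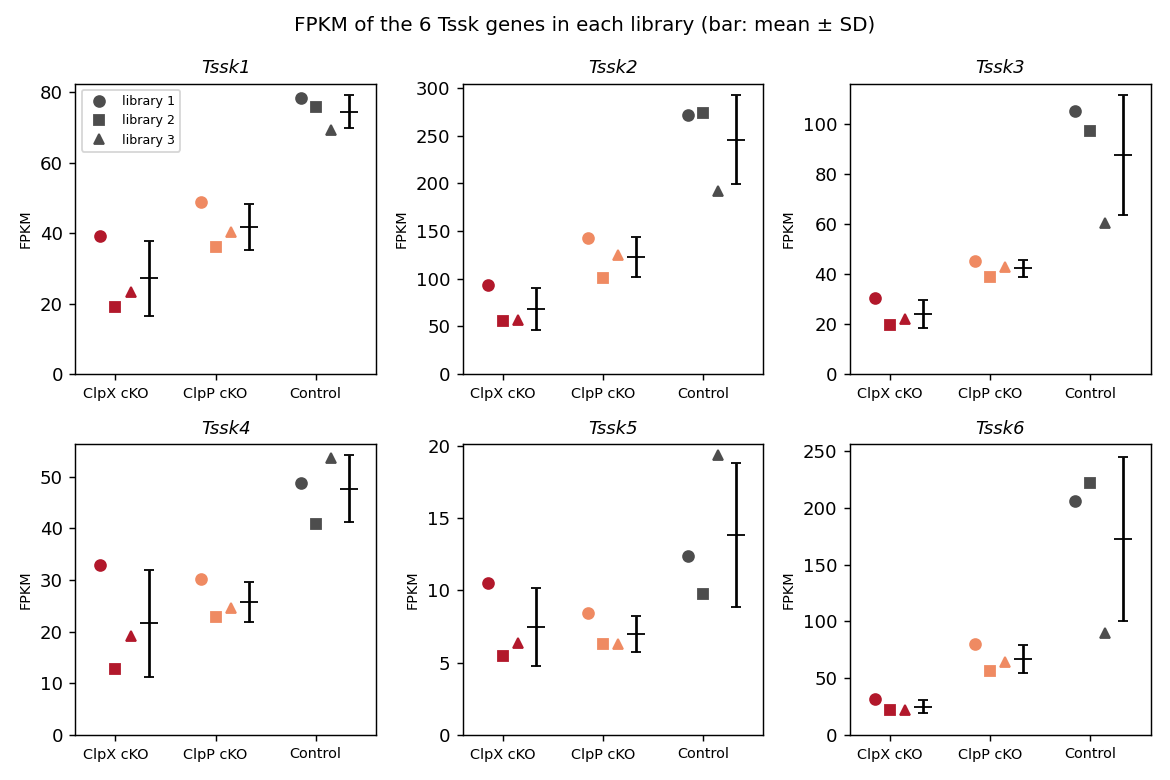
FPKM (vertical axes, linear, from 0) of the 6 genes in each library, 1 panel a gene, with circles, squares and triangles for libraries 1, 2 and 3 and a bar for the mean ± SD of 3. All ClpP cKO libraries lie below all controls in every panel, and only Tssk5 has a ClpX cKO library (10.5) above a control (9.73).

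The first comparison sets ClpX cKO against controls. Transcripts of all 6 kinases were lower in ClpX cKO. Tssk6 fell most, to 25.0 ± 5.40 FPKM in ClpX cKO, against 172 ± 72.2 FPKM in controls (SD, n = 3 each), a log2 change of -2.65 (SE 0.33, adjusted p = 4.7e-04). Tssk2 averaged 68.5 ± 21.9 FPKM in ClpX cKO and 246 ± 46.4 FPKM in controls, a change of -1.85 (SE 0.23, adjusted p = 4.7e-04). Tssk3 changed by -1.80 (SE 0.22, adjusted p = 4.6e-04), with means of 24.1 ± 5.63 FPKM in ClpX cKO and 87.6 ± 24.0 FPKM in controls.

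Tssk1 and Tssk4 changed by -1.48 (SE 0.23, adjusted p = 8.0e-04) and -1.20 (SE 0.29, adjusted p = 0.0059). Tssk5 changed least, by -0.81 (SE 0.27, adjusted p = 0.028), with means of 7.43 ± 2.70 FPKM in ClpX cKO and 13.8 ± 4.97 FPKM in controls. These are changes of log2(FPKM + 1), fitted with limma over all 17266 genes and 9 libraries and called where p, adjusted by Benjamini-Hochberg over those genes, was under 0.05, a rule that holds for every call below.

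That all 6 were called has to be read against a background in which 65.6% of all tested genes were called and 33.5% were called lower. For all members but Tssk5, every ClpX cKO library lay below every control, which held for 35% of all tested genes. The size stands further out: the median over the 6 members was -1.64, against -0.00 over all genes, and Tssk1, Tssk2, Tssk3 and Tssk6 lay below the 5th percentile of all genes (-1.33). By size of fall, Tssk6 ranked 31 of 17266. Tssk5 was the member whose call did not hold, with an adjusted p of 0.052 without Control 1, 0.086 without Control 3, 0.096 without ClpX cKO 2 and 0.086 without ClpX cKO 3. The other 5 members stayed called when any 1 library was left out (29.4% to 34.5% of all genes were called lower in those fits). Without both Control 3 and ClpX cKO 1, all 6 were called (33.8% of all genes were called lower) and Tssk6 changed by -3.23.

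The second comparison sets ClpP cKO against controls. Transcripts of all 6 kinases were lower in ClpP cKO as well, within a narrower span. Tssk6 averaged 66.6 ± 12.3 FPKM in ClpP cKO and 172 ± 72.2 FPKM in controls, a change of -1.27 (SE 0.33, adjusted p = 0.017). Tssk2 averaged 123 ± 21.0 FPKM in ClpP cKO and 246 ± 46.4 FPKM in controls, and Tssk3 averaged 42.4 ± 3.31 FPKM in ClpP cKO and 87.6 ± 24.0 FPKM in controls. Both changed by -0.99, with adjusted p of 0.013 for Tssk2 and 0.012 for Tssk3.

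Tssk1 averaged 41.7 ± 6.42 FPKM in ClpP cKO and 74.5 ± 4.78 FPKM in controls, a change of -0.83 (adjusted p = 0.021). Tssk4 changed by -0.86 (adjusted p = 0.038), with means of 25.8 ± 3.87 FPKM in ClpP cKO and 47.7 ± 6.41 FPKM in controls. Tssk5 changed by -0.85 (adjusted p = 0.035), with means of 7.0 ± 1.25 FPKM in ClpP cKO and 13.8 ± 4.97 FPKM in controls. In this comparison Tssk5 thus moved about as far as Tssk1 and Tssk4.

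Of all tested genes, 44.7% were called in ClpP cKO and 24% were called lower, while 30.5% had every ClpP cKO library below every control, as all 6 members did. The median change was -0.93 over the members and 0.01 over all genes, whose 5th percentile was -0.86. Tssk6 ranked 83 of 17266 from the lowest. The calls depended on single libraries. Leaving out Control 1 left 2 members called (13.2% of all genes were called lower in that fit), Control 2 left 3 (15.5%) and Control 3 left 4 (20.1%). Leaving out ClpP cKO 2 left 2 members (11.7% of all genes), as did leaving out ClpP cKO 3 (13.1%). Without ClpX cKO 3, which enters through the shared estimate of spread, 5 were called (23.7% of all genes). Tssk3 passed in every such fit, with changes of -0.84 (without Control 1) to -1.24 (without Control 3).

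**Figure D2:**
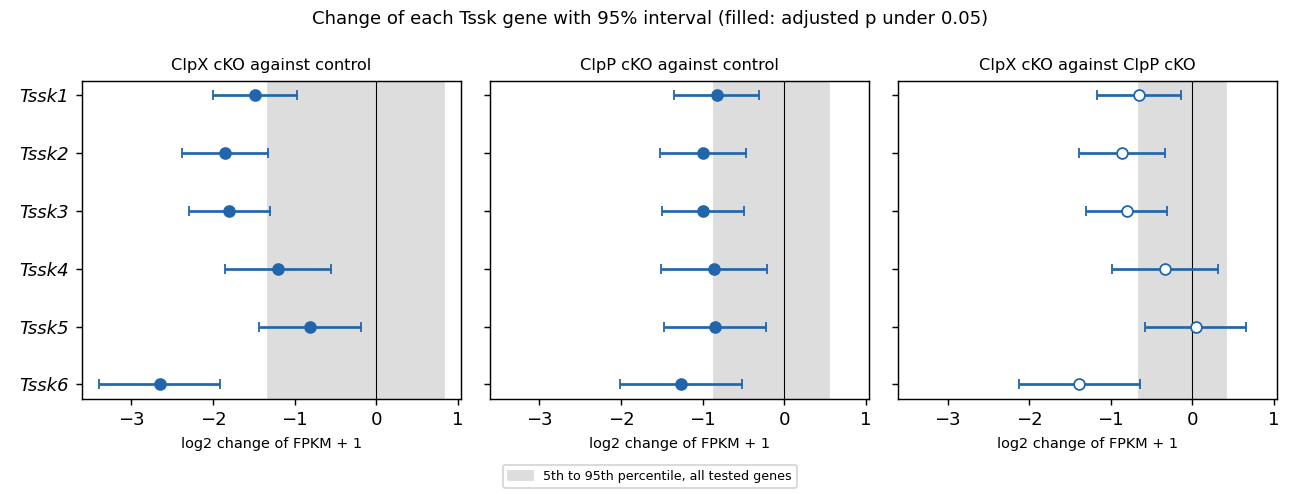
Change of log2(FPKM + 1) (horizontal axes) of each gene in the 3 comparisons, as points with 95% confidence intervals from limma, filled where the adjusted p was under 0.05. The grey band holds the 5th to 95th percentile of all 17266 tested genes (-1.33 to 0.83, -0.86 to 0.55 and -0.65 to 0.41). The points of Tssk2, Tssk3 and Tssk6 lie left of it in each panel.

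The knockouts were then set against each other. No member passed the threshold between ClpX cKO and ClpP cKO, where 0.104% of tested genes, or 18, were called (0.0579% lower) and 4801 had an unadjusted p under 0.05. Tssk6, Tssk2, Tssk3 and Tssk1 had lower fitted levels in ClpX cKO with intervals that exclude 0. Tssk6 differed by -1.38 (95% interval -2.13 to -0.64, adjusted p = 0.081), with 25.0 ± 5.40 FPKM in ClpX cKO and 66.6 ± 12.3 FPKM in ClpP cKO. Tssk2 differed by -0.86 (-1.39 to -0.33, adjusted p = 0.089) and Tssk3 by -0.81 (-1.30 to -0.31, adjusted p = 0.090). For these 3 genes every ClpX cKO library lay below every ClpP cKO library, which held for 14.9% of all tested genes.

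Tssk1 differed by -0.65 (-1.17 to -0.14, adjusted p = 0.12), with overlapping groups. Tssk4 differed by -0.34 (-0.99 to 0.31) and Tssk5 by 0.04 (-0.58 to 0.66), so for these 2 genes the intervals hold both lower and higher levels in ClpX cKO. The outcome rests on ClpX cKO 1, the highest ClpX cKO library for all 6 genes: without it, 5 members were called lower, Tssk6 by -1.55 (adjusted p = 0.021), Tssk2 by -1.10 (0.010), Tssk3 by -0.98 (0.018), Tssk1 by -0.94 (0.0087) and Tssk4 by -0.68 (0.037). Tssk5 was at -0.21 (adjusted p = 0.56) there. In that fit 4758 of all tested genes, or 27.6%, were called, and 15.6% were called lower. Leaving out Control 3, which changes only the shared spread, called Tssk3 (adjusted p = 0.042) and Tssk6 (0.013), and 2.58% of all genes. Limma voom on the recovered reads called Tssk2 and Tssk6, and 4.8% of all genes.

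Levels can be compared between members because FPKM is per length. In controls Tssk2 was the highest member, followed by Tssk6, Tssk3, Tssk1, Tssk4 and Tssk5. Tssk2 lay above Tssk6, and Tssk6 above Tssk3, within each of the 3 control libraries, although the ranges over libraries overlapped, as they did for Tssk3 and Tssk1. The order was the same in ClpP cKO, where only Tssk3 and Tssk1 overlapped. In ClpX cKO the order was Tssk2, Tssk1, Tssk6, Tssk3, Tssk4 and Tssk5, and the ranges of neighbours from Tssk1 to Tssk4 overlapped.

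The place of Tssk1 in this order depends on its gene model. The table divides its reads by 3700 bases, while the RefSeq model spans 1451 bases, and the coding sequence is 29.6% of the table's length. An alternative added after the data were seen kept all its reads and divided them by the RefSeq span. Tssk1 was then at 69.2 ± 26.9 FPKM in ClpX cKO, 106 ± 16.4 FPKM in ClpP cKO and 190 ± 12.2 FPKM in controls, next to Tssk2 in each group. Reads outside the RefSeq span could not be removed, so the levels under that model may be lower. No other member was rescaled. With the reads unchanged, a ratio of Tssk1 FPKM between groups is the same with either length.

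Summed over the 6 genes, the family reached 174 ± 56.1 FPKM in ClpX cKO, 306 ± 47.5 FPKM in ClpP cKO and 642 ± 137 FPKM in controls. Tssk2 kept a like share of that sum, 39.5 ± 1.74% in ClpX cKO, 40.0 ± 1.30% in ClpP cKO and 38.5 ± 1.11% in controls. The share of Tssk6 was 14.7 ± 1.52% in ClpX cKO, 21.7 ± 0.75% in ClpP cKO and 25.9 ± 6.56% in controls. Tssk4 made up 12.1 ± 2.27% of it in ClpX cKO, 8.44 ± 0.31% in ClpP cKO and 7.83 ± 2.85% in controls. Tssk5 made up 4.24 ± 0.18% in ClpX cKO, 2.29 ± 0.18% in ClpP cKO and 2.36 ± 1.43% in controls.

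In ClpX cKO the members differed in the size of their fall, with Tssk6 and Tssk5 the furthest apart. Whether all members moved by 1 common factor was not tested. The FPKM ratio of Tssk6 to Tssk5 was 2.97, 3.99 and 3.47 in ClpX cKO, 9.50, 8.90 and 10.2 in ClpP cKO and 16.6, 22.8 and 4.62 in controls. The ratio was lowest in every ClpX cKO library, and Control 3 lay apart from its group, below the ClpP cKO libraries. Control 3 had the lowest value of the 3 controls for Tssk1, Tssk2, Tssk3 and Tssk6 and the highest for Tssk4 and Tssk5. The ClpP cKO ratios lay within the range of the controls. The groups of the ratio were not tested against each other.

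Likeness of pattern was measured as the root mean square difference of log2(FPKM + 1) over the 9 libraries, after centring each gene on its own mean. Among the 15 pairs of members, Tssk2 and Tssk3 were most alike (0.12 log2 units) and Tssk5 and Tssk6 least (0.97). Tssk1 and Tssk2, the neighbours with shared sequence, were at 0.19, and Tssk4 and Tssk5 at 0.26.

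Among 12821 other protein-coding genes, the closest to Tssk1 were Cabyr (0.034), a calcium-binding protein of the sperm fibrous sheath, and Tbata (0.040). The closest to Tssk2 were Irgc1 (0.053) and Tsks (0.060), the gene of the shared TSSK1 and TSSK2 substrate. For Tssk3 they were Tmem53 (0.041) and 2810408A11Rik (0.054), and for Tssk4 they were Heatr4 (0.075) and Ftmt (0.076), the mitochondrial ferritin. For Tssk5 the nearest genes were farther away, Fer1l5 (0.11) and Fam205a1 (0.13). For Tssk6 they were Fscn3 (0.081), a testis form of the actin bundler fascin, and Bpifa3 (0.089). These are descriptions over 9 libraries that share the 3 groups.

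Tsks illustrates this. It averaged 58.2 ± 17.9 FPKM in ClpX cKO, 104 ± 13.7 FPKM in ClpP cKO and 206 ± 49.7 FPKM in controls. Fscn3, nearest to Tssk6, averaged 8.31 ± 2.54 FPKM in ClpX cKO, 23.6 ± 3.52 FPKM in ClpP cKO and 65.0 ± 25.8 FPKM in controls.

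Spermatid markers moved with the family. In bulk samples such as these, fewer cells of a type and less RNA per cell cannot be told apart. The summed FPKM of 10 elongating spermatid markers (among them Tnp1, Prm1 and Akap4) ran from 1594 to 2455 in ClpX cKO, from 4491 to 5377 in ClpP cKO and from 7800 to 17295 in controls. All 10 fell in both knockouts, with median changes of -2.33 in ClpX cKO and -1.28 in ClpP cKO. Of all tested genes, 33.5% were called lower in ClpX cKO and 24% in ClpP cKO. The 8 round spermatid markers (among them Acrv1 and Spaca1) summed to 343 to 531 FPKM in ClpX cKO, 502 to 593 FPKM in ClpP cKO and 844 to 863 FPKM in controls. Of these, 8 fell in ClpX cKO (median -1.10) and 7 in ClpP cKO (median -0.73).

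Markers of other cells moved less or the other way. The 8 pachytene and diplotene spermatocyte markers summed to 926 to 1084 FPKM in ClpX cKO, 1062 to 1137 FPKM in ClpP cKO and 1205 to 1302 FPKM in controls. Of them 4 fell and 1 rose in ClpX cKO (33.5% and 32.1% of all tested genes), and 3 fell in ClpP cKO (24% of all). With 8 genes, these counts are not read apart from those shares. The 8 Sertoli cell markers (among them Wt1 and Sox9), which belong to somatic cells of the tubule, summed to 1070 to 1469 FPKM in ClpX cKO, 851 to 954 FPKM in ClpP cKO and 626 to 689 FPKM in controls. Of these, 8 rose in ClpX cKO (32.1% of all tested genes rose there) and 7 in ClpP cKO (20.7% of all). Of 6 Leydig cell markers, 2 rose in ClpX cKO (32.1% of all) and 0 in ClpP cKO (20.7% of all). Of 3 tested peritubular cell markers, 2 rose in ClpX cKO and 0 in ClpP cKO. Of 4 macrophage markers, 4 rose in ClpX cKO and 3 in ClpP cKO. None of the markers in these lists was at 0 in all libraries of a group. Mitochondrially encoded genes took 2.23% to 2.94% of reads in ClpX cKO, 1.48% to 1.63% in ClpP cKO and 0.83% to 0.96% in controls. The part of these shifts in the fall of the Tssk genes was not tested.

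Set beside the spermatid lists within each library, the members parted. Relative to the mean log2(FPKM + 1) of the elongating spermatid list, Tssk6 lay at -2.29 ± 0.07 in ClpX cKO, -2.13 ± 0.15 in ClpP cKO and -2.17 ± 0.18 in controls, and the groups overlapped. Relative to that list, every other member lay higher in each ClpX cKO library than in each control, Tssk5 by 1.73 on average and Tssk2 by 0.68. The list itself fell by a median of -2.33 in ClpX cKO, below the 5th percentile of all tested genes (-1.33). Genes that fell less than the list therefore lie higher on this scale, and the share of all genes so separated was not counted. For Tssk6 the group means on this scale differed by less than the spread between control libraries.

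Relative to the round spermatid list, Tssk6 lay at -0.37 ± 0.12 in ClpX cKO, 0.66 ± 0.09 in ClpP cKO and 1.23 ± 0.77 in controls, with no ClpX cKO library reaching either other group. Tssk4 lay at -0.65 ± 0.28 in ClpX cKO, -0.67 ± 0.03 in ClpP cKO and -0.50 ± 0.12 in controls. Tssk5 lay at -2.02 ± 0.05 in ClpX cKO, -2.42 ± 0.05 in ClpP cKO and -2.26 ± 0.41 in controls, and for both genes ClpX cKO and controls overlapped. Tssk1, Tssk2 and Tssk3 lay lower in each ClpX cKO library than in each control, with mean differences of -0.43, -0.80 and -0.75 (ClpX cKO minus control). Between ClpP cKO and controls, Tssk4 was the only member whose libraries did not overlap on this scale. These positions are descriptions with no test, and the share of all genes separated in this way was not counted.

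**Figure D3:**
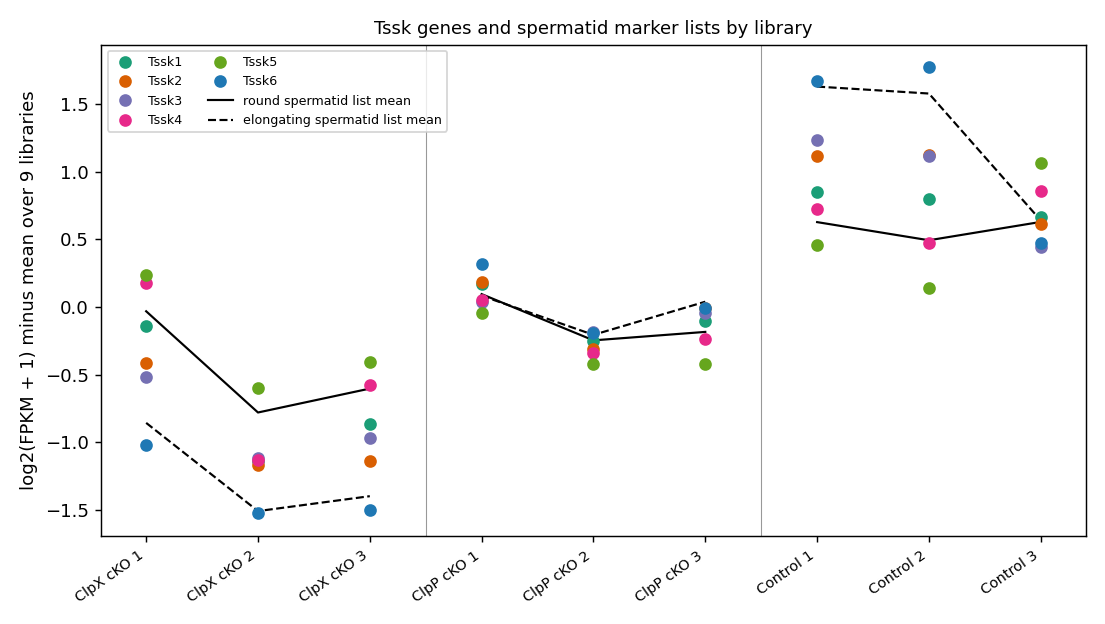
log2(FPKM + 1) of each Tssk gene in each library minus its own mean over 9 libraries (vertical axis), as coloured points, with lines for the means of the round (solid) and elongating (dashed) spermatid lists treated alike. Tssk6 follows the dashed line, including its low value in Control 3 (0.48), while Tssk5 stays between -0.60 (ClpX cKO 2) and 1.06 (Control 3).

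Of 12 genes listed as partners, substrates or regulators of the family, 8 fell and 4 rose in ClpX cKO (33.5% and 32.1% of all). In ClpP cKO 7 fell and 3 rose (24% and 20.7% of all tested genes). Under quantile normalization, however, Ppp1cc and Hsp90aa1 were higher in both knockouts. The median change was -0.50 in ClpX cKO and -0.28 in ClpP cKO. Among the listed genes that fell, Tsks changed by -1.81 in ClpX cKO (adjusted p = 5.0e-04) and -0.96 in ClpP cKO (0.016). Odf2, the tail fibre substrate of TSSK4, averaged 129 ± 23.8 FPKM in ClpX cKO, 178 ± 11.9 FPKM in ClpP cKO and 333 ± 49.5 FPKM in controls, with changes of -1.36 in ClpX cKO and -0.89 in ClpP cKO. Tsacc, the cochaperone that brings TSSK6 to HSP70, changed by -1.05 in ClpX cKO and -0.72 in ClpP cKO. Spag16, a protein of the sperm axoneme that binds TSSK2, changed by -0.62 in ClpX cKO and -0.37 in ClpP cKO.

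The 4 genes that rose in ClpX cKO were Creb1, H2afx, Hsp90ab1 and Hspa8, of which the first 3 also rose in ClpP cKO. H2afx, whose product is phosphorylated in a TSSK6-dependent way in mouse spermatids, was at 91.0 ± 16.5 FPKM in ClpX cKO, 81.0 ± 9.47 FPKM in ClpP cKO and 51.2 ± 3.84 FPKM in controls, with changes of 0.80 in ClpX cKO and 0.65 in ClpP cKO. Ppp1cc, Pdpk1, Crem and Hsp90aa1 fell in ClpX cKO beside the partners named above. How widely the listed genes are expressed was not examined. In ClpP cKO the count of 10 called partners dropped to 4 when Control 1 (24.3% of all genes called) or ClpP cKO 2 (20.9%) was left out. It dropped to 5 when Control 2 (28.3%) or ClpP cKO 3 (23.4%) was left out. None of the 12 was called between the knockouts, and 8 were without ClpX cKO 1, a fit that called 27.6% of all genes.

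Among 10 other kinases of male germ cells, 4 fell, 1 rose and 5 were not called in ClpX cKO, while 5 fell, 1 rose and 4 were not called in ClpP cKO, where Prkaca turned positive under quantile normalization. Over all tested genes, 33.5% fell and 32.1% rose in ClpX cKO, and 24% fell and 20.7% rose in ClpP cKO. Camk4, a calcium/calmodulin-dependent kinase, averaged 1.04 ± 0.32 FPKM in ClpX cKO, 1.61 ± 0.36 FPKM in ClpP cKO and 3.43 ± 0.62 FPKM in controls, with changes of -1.12 in ClpX cKO and -0.77 in ClpP cKO. Stk33 changed by -0.76 in ClpX cKO and -0.48 in ClpP cKO, and Mak, a kinase of the cilium, by -0.87 in ClpX cKO and -0.52 in ClpP cKO. Mark4, a microtubule affinity-regulating kinase, rose by 0.88 in ClpX cKO and 0.56 in ClpP cKO. The median over the 10 was -0.11 in ClpX cKO and -0.23 in ClpP cKO. Over the Tssk genes it was -1.64 in ClpX cKO and -0.93 in ClpP cKO. How widely the 10 kinases are expressed was not examined, so these medians may not compare genes of like expression. In ClpP cKO, 3 of the 10 were called without ClpP cKO 2 (20.9% of all genes called) or without ClpP cKO 3 (23.4%).

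**Figure D4:**
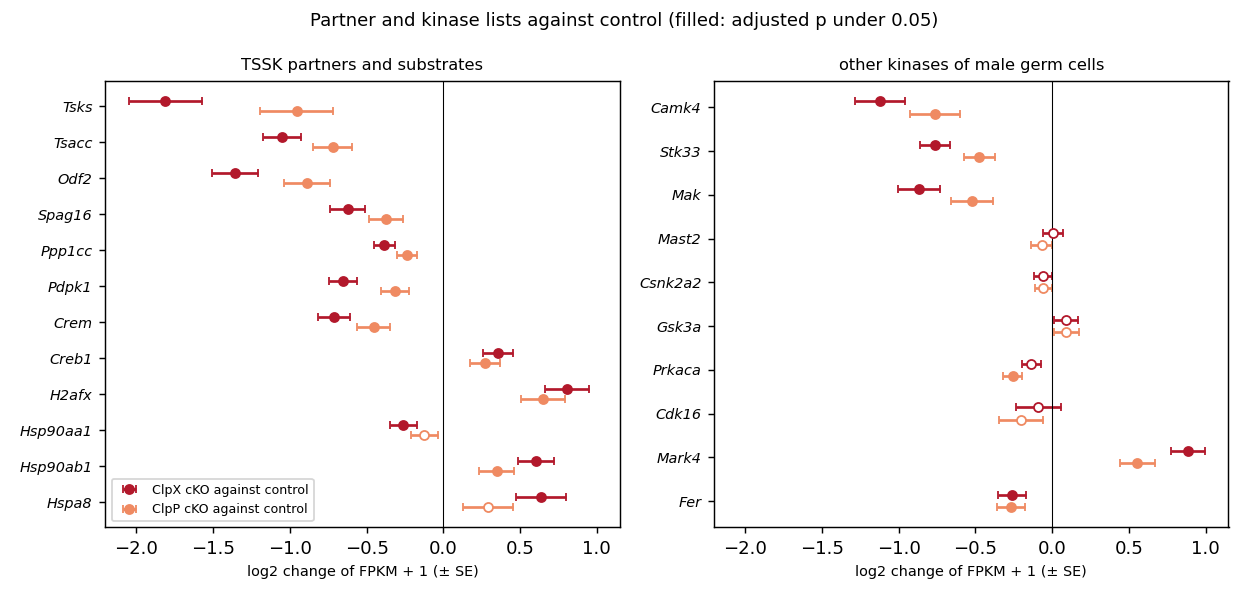
Change of log2(FPKM + 1) with its SE (horizontal axes) for 12 partners and substrates (left) and 10 other kinases (right), in ClpX cKO (dark) and ClpP cKO (light) against control, filled where the adjusted p was under 0.05. Tsks (-1.81 and -0.96) lies farthest left among the partners, and Mark4 (0.88 and 0.56) farthest right among the kinases.

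The overlapping neighbour of Tssk6 was read on its own. Ndufa13, a subunit of mitochondrial complex I, was at 25.2 ± 1.65 FPKM in ClpX cKO, 27.6 ± 4.34 FPKM in ClpP cKO and 40.0 ± 10.7 FPKM in controls. Its change was -0.62 in ClpX cKO (adjusted p = 0.018) and -0.50 in ClpP cKO (adjusted p = 0.058), smaller than that of Tssk6 in both. In controls it was at 50.7, 40.0 and 29.2 FPKM, with Control 3 lowest, as for Tssk6. The part of shared reads in either gene's values was not tested.

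Deposited values carry a scaling that differs from the libraries' own totals of gene reads, by factors of 1.05 to 1.09 in ClpX cKO, 1.04 to 1.05 in ClpP cKO and 0.897 to 0.951 in controls. Scaling by own totals moved the median of all genes to 0.18 in ClpX cKO and 0.16 in ClpP cKO. It turned the calls over all genes to 7366 higher and 4265 lower in ClpX cKO, against 5548 and 5778 as deposited, and to 5992 higher and 2404 lower in ClpP cKO, against 3573 and 4149. All 6 Tssk genes stayed below control under it, from -0.61 (Tssk5) to -2.43 (Tssk6) in ClpX cKO and from -0.65 (Tssk1) to -1.08 (Tssk6) in ClpP cKO. Of them 5 were called in ClpX cKO, without Tssk5, and 4 in ClpP cKO, without Tssk4 and Tssk5.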

How the data were processed

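RNA of 9 libraries was sequenced by the authors with a SMARTER kit, per the labels' protocols, on builds GRCm38 and mm10, per the submitters' processing notes. The authors deposited FPKM per gene with gene lengths. The aligner and counter are not given in the sources used here. FPKM times length was a whole multiple of 1 step for 100% of values (tolerance 0.01 of a step), which recovered reads per gene.

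Tests used limma 3.58.1 in R 4.3.3 on log2(FPKM + 1), 1 model of 3 groups, trended variance, two-sided, over genes with a mean of at least 1 FPKM. A log2 change so defined understates low genes. The procedure was run on simulated counts in which few genes changed and no library stood apart from its group. These data differ in both, so that run does not measure error rates here. Annotation came from GENCODE M21, promoters from RefSeq, both GRCm38. Named genes were the 6 members, list members in list order, and the 2 nearest genes each. Members and lists were chosen with earlier results of these data known. The correlation of deviations was over 0.1 in 4 of 9 same-numbered pairs, not in all, so the numbers were not taken as pairs.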

Additional observations from a re-analysis of the deposited data

How the results depend on the processing

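Over 19 alternatives, 288 of the 342 values of the 6 Tssk genes kept their direction and side of the threshold, 35 lost the call, 15 gained it and 4 changed sign. All 4 are Tssk5 between the knockouts, called in none of these fits, which ran from -0.21 to 0.21 when 1 library was left out and was -0.21 without both Control 3 and ClpX cKO 1. In ClpX cKO against control, 5 or 6 members were called when 1 library was left out (29.4% to 34.5% of all genes called lower). In ClpP cKO against control 2 to 6 were (11.7% to 26.8% of all genes), and between the knockouts 0 to 5 (0.0% to 15.6%). Against control in ClpP cKO, 3 members were called with no filter on low values (7.45% of all genes called lower). Under quantile normalization 3 were called (16.0% of all genes). Between ClpX cKO and ClpP cKO, 2 were called by limma voom (2.36% of all genes called lower) and 1 with only the 6 libraries compared (0.411%). Without both Control 3 and ClpX cKO 1, 5 were called there (17.2% of all genes). With the replicate number as a block the counts were 6, 6 and 0, the same as without it, and genes called over the whole table were 11291, 7845 and 1; the numbers were not taken as pairs, since 4 of 9 same-numbered pairs had a correlation of deviations over 0.1 (range -0.07 to 0.23). Libraries correlated best with their own number in 12 of 18 comparisons, a hint from the data and not from the design. Listed genes that were called in a fit and changed sign did so under quantile normalization: in ClpX cKO Ppp1cc to 0.18, Hsp90aa1 to 0.41 and Prkaca to 0.29, in ClpP cKO Ppp1cc to 0.22, Hsp90aa1 to 0.31 and Prkaca to 0.039; the cause was not tested. Other listed genes changed sign without a call in either fit. Under quantile normalization these were Csnk2a2 (0.051) and Cdk16 (0.23) in ClpX cKO, Mast2 (0.19), Csnk2a2 (0.012) and Cdk16 (0.0090) in ClpP cKO, and Hsp90aa1 (0.10), Csnk2a2 (0.039) and Gsk3a (0.090) between the knockouts. With own totals and with limma voom, they were Csnk2a2 (0.15 and 0.16), Prkaca (0.086 and 0.088) and Cdk16 (0.13 and 0.13) in ClpX cKO, and Hsp90aa1 (0.060 and 0.060), Mast2 (0.11 and 0.11) and Csnk2a2 (0.12 and 0.12) in ClpP cKO. Between the knockouts they were Csnk2a2 (0.036 and 0.038) and Gsk3a (0.037 and 0.038). Leaving out 1 library gave Mast2 -0.019 to 0.058 and Cdk16 -0.26 to 0.018 in ClpX cKO, and between the knockouts Csnk2a2 -0.022 to 0.014, Gsk3a -0.086 to 0.060 and Fer -0.087 to 0.083. Without both Control 3 and ClpX cKO 1, Csnk2a2 (0.0065), Gsk3a (0.060) and Fer (-0.087) changed sign there. The Tssk1 level with the RefSeq span as the length and all reads kept moved to 69.2, 106 and 190 FPKM in ClpX cKO, ClpP cKO and controls. In ClpP cKO 5 of the 12 partners were called with no filter (13.3% of all genes called). Under quantile normalization 3 of the 10 other kinases were called (38.7% of all genes). Genes called over the whole table ranged from 3617 (without ClpP cKO 2) to 8781 (limma voom) in ClpP cKO against control, and from 0 to 5149 (without Control 3 and ClpX cKO 1) between the knockouts.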
